A study of Homo sapiens with 8 samples.

Results

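The genes of DNA replication and of the passage into S phase were followed across all 8 libraries of a polysome profiling experiment in OCI-AML3, an established cell line from a human acute myeloid leukaemia. The 47 genes were taken from a fixed list of symbols: origin licensing, the fork helicase, the sliding clamp and its loader, polymerases, Okazaki fragment processing, nucleotide supply, and regulators of the G1 to S transition with the chromatin assembly factors. All 47 were found among the 58395 genes listed in the files, and all 47 were among the 16503 genes that passed the filter on low counts. The cells carried a lentiviral short hairpin, either against FBL (fibrillarin, the RNA 2'-O-methyltransferase of the nucleolus) or a control hairpin. The 4 groups of 2 libraries each were polysome RNA labelled FBL knockdown, polysome RNA labelled WT (called labelled control here), input RNA labelled FBL knockdown and input RNA labelled WT. Every group had received cycloheximide at 100 µg/mL for 15 min, which stalls ribosomes on mRNA, and input and gradient came from a shared cleared lysate. No source used here gives the hairpin sequences, the time since infection or the gradient fractions taken as polysomes. Nothing states that the 2 libraries of a group are from separate cultures, so p-values measure only the spread between libraries, which may be technical.

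During G1 the origin recognition complex, CDC6 and CDT1 load the MCM2 to MCM7 ring on origins, and at the start of S phase CDC45 and the GINS complex join it to form the active helicase. Replication factor C (RFC1 to RFC5) then places the PCNA clamp for the polymerases. Many of these genes are known targets of E2F transcription factors. E2F factors are released when cyclin-dependent kinases, among them that of cyclin E, inactivate the retinoblastoma protein. In leukaemia lines in culture the replication genes are usually well expressed. In bulk libraries, fewer cells in S phase and less RNA per cell cannot be told apart.

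FBL, the targeted gene, showed no lower level under the knockdown label. It had 499 CPM in polysome labelled knockdown 1 and 165 CPM in polysome labelled knockdown 2, against 498 and 163 CPM in polysome labelled control 1 and 2. In input RNA it had 253 and 84.2 CPM in labelled knockdown 1 and 2, against 249.95 and 88.1 CPM in labelled control 1 and 2. FBL therefore followed the library number and not the label, and each direction below is drawn from labels that its counts do not bear out. CPM stands for the counts of a gene scaled to library size after TMM normalisation. Gene counts came to 22171255 in polysome labelled knockdown 2, the shallowest library, and to 30818670 to 43118190 in the others. The 47 genes together took 0.515% to 0.682% of them. The 7 myeloid markers summed to 1092 to 1766 CPM, mostly SPI1 (742 to 1130 CPM) and CEBPA (172 to 541 CPM), while MPO had 0 to 3.72 CPM and ITGAM 1.03 to 4.43 CPM. Lymphoid markers summed to at most 2.60 CPM, with CD3E, CD3D, MS4A1 and CD8A at 0.

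Levels between genes were compared per kb of annotated exon, counting the exons of all isoforms. This length exceeds that of the principal transcript by unlike amounts (3695 against 2158 bases in POLD2, 1861 against 1628 in TK1). The order of genes, including TK1 over POLD2 on polysomes, and the spread within a complex depend on this choice. In input RNA the clamp PCNA was highest, at 208 and 202 CPM per kb in labelled knockdown 1 and 2, against 215 and 225 CPM per kb in labelled control 1 and 2. In polysome RNA the highest was TK1, the thymidine kinase of the salvage pathway, at 236 and 180.2 CPM per kb in labelled knockdown 1 and 2, against 192 and 199 CPM per kb in labelled control 1 and 2. Levels per kb spanned a wide range within every role. The median gene stood at 16.7 CPM per kb in input labelled knockdown and 16.5 CPM per kb in input labelled control. After PCNA, the highest in input labelled control were the flap endonuclease FEN1 (123 CPM per kb), the polymerase delta subunit POLD2 (96.2 CPM per kb), TK1 (93.9 CPM per kb) and MCM7 (74.1 CPM per kb). CDC45 led the firing factors with 16.5 CPM per kb, and CHAF1A led the regulators and chromatin assembly factors with 44.9 CPM per kb, close to E2F1 at 44.8 CPM per kb. CCNE2, the second cyclin E gene, was nearly absent, at 0.0444 CPM per kb in polysome labelled knockdown, 0.241 in polysome labelled control, 0.158 in input labelled knockdown and 0.301 in input labelled control.

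Some counts are uncertain, since the strand setting of the counting is not given. Exons of TYMS overlap those of ENOSF1 and TYMSOS, exons of PRIM1 those of NACA, MCM2 those of TPRA1, MCM7 those of AP4M1, RFC4 those of EIF4A2, FEN1 those of FADS2 and TMEM258, and CHAF1A those of UBXN6. MCM2, ORC2, GINS2, GINS3, GINS4, RFC5, POLA2, POLD1, POLD3, LIG1, RPA1, RPA3, RRM1, RRM2, CCNE2, CHAF1A and CHAF1B also overlap another annotated gene. E2F1, CDT1, CCNE1, MCM4, MCM5, ORC6 and TK1 have no such overlap. PCNA, RPA2 and RRM2 have 3 pseudogenes each by name, TYMS has 2, and RFC3, RFC5, POLD2 and FEN1 have 1 each.

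The promoters of 3 members are shown because E2F1 is itself a member and many of the genes are known E2F targets. RefSeq windows from 250 bases before to 50 bases after the gene start (GRCh38.p14) were matched for 40 of the 47 genes and searched on both strands for TTTNGCGC, TTTCCCGC and TTTGGCGG. At least 1 of these words was present in 25 of the 40 windows (62.5%), against 4.04% of all 27305 promoters in the table and 6.50% of the 10545 promoters of coding genes tested here. The CCAAT word was present in 24 of the 40 windows, against 35.7% of all promoters and 36.7% of those of tested coding genes. A match is a description of these letters and not a binding site. The windows of E2F1 itself, of the licensing factor CDT1 and of the ribonucleotide reductase subunit RRM2 are given 5′ to 3′ on the strand of the gene, with the words in capitals.
E2F1 promoter, chr20:33686336-33686635, minus strand: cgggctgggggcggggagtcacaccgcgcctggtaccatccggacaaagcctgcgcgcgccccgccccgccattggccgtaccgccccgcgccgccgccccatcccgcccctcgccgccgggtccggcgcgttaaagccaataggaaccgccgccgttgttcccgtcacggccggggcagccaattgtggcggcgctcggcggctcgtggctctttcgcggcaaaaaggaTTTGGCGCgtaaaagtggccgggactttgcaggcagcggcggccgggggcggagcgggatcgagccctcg
CDT1 promoter, chr16:88803539-88803838, plus strand: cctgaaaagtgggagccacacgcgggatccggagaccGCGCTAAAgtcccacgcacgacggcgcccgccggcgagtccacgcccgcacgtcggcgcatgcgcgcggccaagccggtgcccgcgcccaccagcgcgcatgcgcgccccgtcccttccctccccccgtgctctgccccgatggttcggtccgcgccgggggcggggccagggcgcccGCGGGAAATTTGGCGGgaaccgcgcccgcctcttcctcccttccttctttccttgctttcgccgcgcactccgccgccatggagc
RRM2 promoter, chr2:10122489-10122788, plus strand: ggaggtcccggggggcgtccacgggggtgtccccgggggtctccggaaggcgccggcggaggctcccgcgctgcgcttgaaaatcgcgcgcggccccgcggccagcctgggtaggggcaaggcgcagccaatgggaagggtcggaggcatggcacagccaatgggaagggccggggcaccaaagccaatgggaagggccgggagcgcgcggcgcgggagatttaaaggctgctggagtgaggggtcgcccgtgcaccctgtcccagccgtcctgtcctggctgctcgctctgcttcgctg
The E2F1 window holds 1 such word and the CDT1 window 3, of which a pair on opposite strands lie side by side. The RRM2 window holds none. The CCAAT word occurs 3 times in the RRM2 window, 3 times in the E2F1 window and 0 times in the CDT1 window.

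In input RNA, which asks for a change in transcript abundance, no call was made between the labels among the 47 genes. None reached the threshold of an adjusted p under 0.05 (edgeR quasi-likelihood F test, Benjamini-Hochberg adjustment over all 16503 genes), and 0% of all genes were called. None of the 47 had an unadjusted p under 0.05 either, where 744 of all genes (4.51%) did, and DESeq2 and limma-voom also called none of the 47. The median log2 fold change, labelled knockdown over labelled control, was -0.02 over the 47 genes and 0.00 over all genes. The values of the groups did not overlap for 12 genes that were higher in labelled knockdown (25.5%, against 21.1% of all genes) and for 7 that were lower (14.9%, against 20.3%). The helicase subunits MCM2 to MCM7 had log2 fold changes between -0.18 (MCM7) and 0.15 (MCM4). E2F1 had 113 and 104.7 CPM in labelled knockdown 1 and 2, against 117 and 107.2 CPM in labelled control 1 and 2, so that the groups overlapped.

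In polysome RNA, only the transcription factor E2F1 was called, and it was lower in labelled knockdown. E2F1 (ENSG00000101412, chr20:33675683-33686404, GRCh38, minus strand) had 134 and 109.6 CPM in polysome labelled knockdown 1 and 2, against 214 and 189.9 CPM in polysome labelled control 1 and 2. Both labelled knockdown libraries lay below both labelled control libraries, and the gap between the groups was wider than the distance within either. The means were 122 ± 17.2 CPM in labelled knockdown and 202 ± 17.3 CPM in labelled control (SD, n = 2 each), and the log2 fold change was -0.73 (edgeR, SE 0.13, adjusted p = 0.0405). This 1 gene is 2.13% of the 47, and 0.63% of all genes were called lower (0.879% in either direction). The call rests on few libraries. Leaving out any single library other than polysome labelled knockdown 1 gave an adjusted p of 0.0660 to 0.125, and a fit of only the 4 polysome libraries gave 0.298 with a log2 fold change of -0.66. Over the 16 alternatives the adjusted p ran from 9.63e-05 to 0.298, and E2F1 was lower in labelled knockdown in each. None of the 16 corrected for GC content, since such offsets were fitted only for polysome against input RNA. Across the 47 genes this polysome log2 fold change had a Spearman's rho of -0.32 with transcript GC content, against -0.07 across coding genes. The part of GC content in the E2F1 call was not tested.

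**Figure D1:**
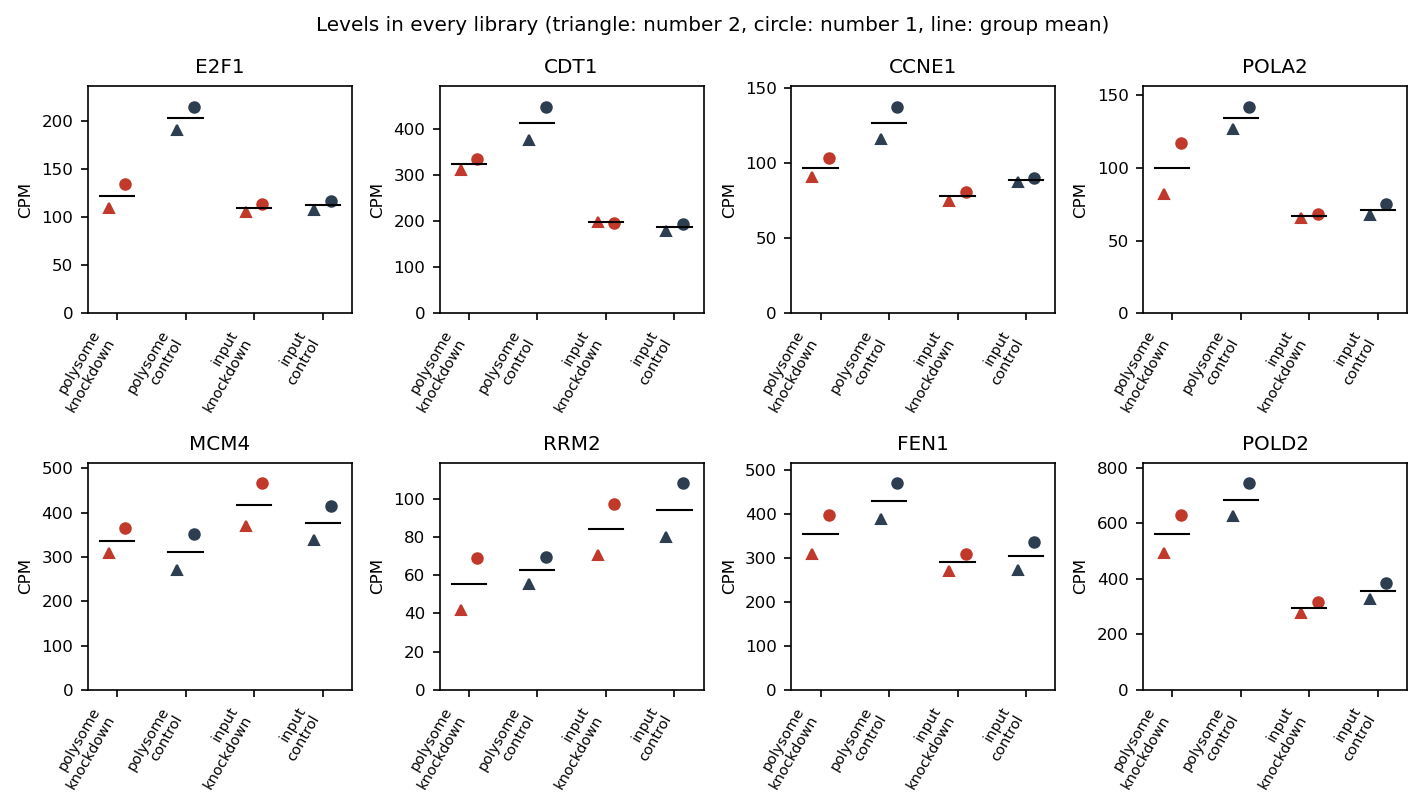
Levels (CPM, linear axes from 0) of 8 genes in every library, for polysome and input RNA labelled knockdown (red) and labelled control (dark blue); triangles are libraries numbered 2, circles those numbered 1, and short lines are the means of 2 libraries. In the E2F1 panel both polysome libraries labelled knockdown (134 and 109.6 CPM) lie below both labelled control (214 and 189.9 CPM), while the input libraries lie close together; in the lower row the triangle lies below the circle in each group.

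Besides E2F1, 5 of the 47 genes had an unadjusted p under 0.05 in polysome RNA without passing the adjusted threshold, 6 in all (12.8%, against 18.1% of all genes). Cyclin E1 (CCNE1), which activates the kinase that drives cells into S phase, had 103 and 91.1 CPM in labelled knockdown 1 and 2, against 138 and 116 CPM in labelled control 1 and 2 (log2 fold change -0.39, SE 0.13, adjusted p = 0.162). The groups of CCNE1 did not overlap. In polysome RNA this held for 12 of the 47 genes that were lower in labelled knockdown (25.5%, against 23.6% of all genes). It also held for 7 that were higher (14.9%, against 15.4%). CDT1 had 336 and 312 CPM in labelled knockdown, against 449 and 376 CPM in labelled control (-0.35, SE 0.11, adjusted p = 0.150). Thymidylate synthase (TYMS) and the regulatory subunit of polymerase alpha (POLA2) had log2 fold changes of -0.36 (adjusted p = 0.163) and -0.43 (adjusted p = 0.217). The clamp loader subunit RFC5 lay the other way, at 12.3 and 15.3 CPM in labelled knockdown, against 7.32 and 8.30 CPM in labelled control (0.82, SE 0.26, adjusted p = 0.141).

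Taken by role, the 6 regulators and chromatin assembly genes had negative log2 fold changes in polysome RNA, with a median of -0.31 and E2F1 as the only call, and CCNE2 among them near 0 CPM. The median was 0.25 over the 6 clamp and loader genes, 0.11 over the 11 licensing genes and 0.01 over the 6 firing and helicase genes. It was -0.20 over 9 polymerase subunits, -0.16 over 5 Okazaki processing and single-strand binding genes and -0.06 over 4 nucleotide supply genes. No gene of these roles was called. Over all 47 genes the median was -0.01, with 24 below 0 and 23 above, against -0.06 over all genes. RFC3, RFC4, RFC5, PCNA, MCM5, GINS4, PRIM1 and LIG1 were highest among the polysome libraries in labelled knockdown 2, the library with the fewest counts. The share of all genes that were highest there was not computed, and the part of depth in this was not tested.

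**Figure D2:**
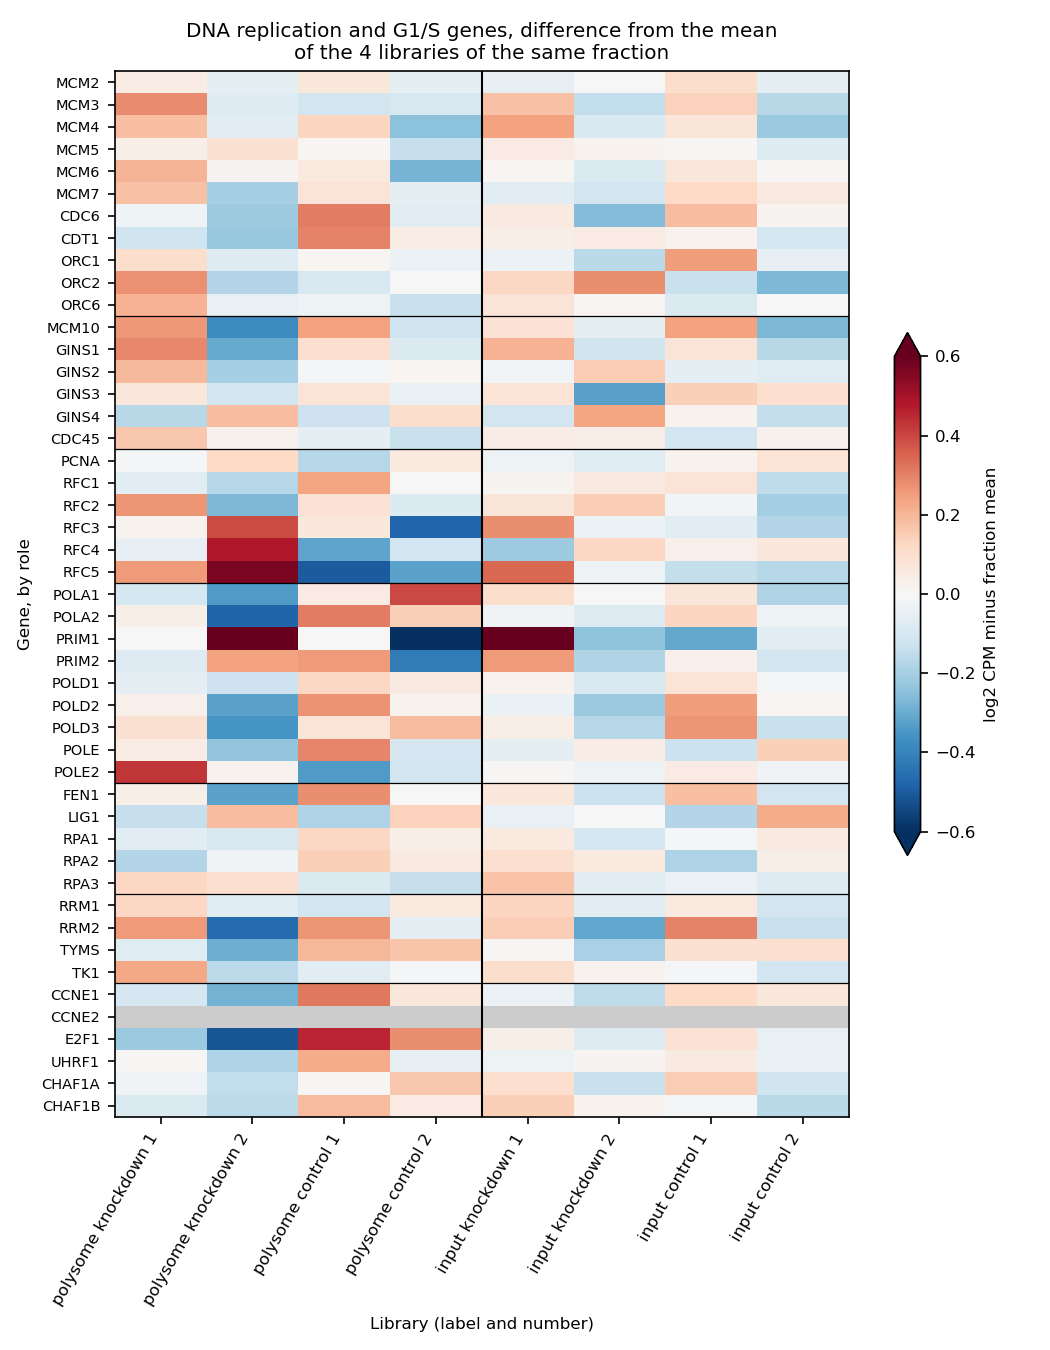
Heat map of the 47 genes by role (rows) in the 8 libraries (columns, polysome left, input right), coloured by log2 CPM minus the mean of the 4 libraries of the same fraction; colours saturate at the ends of the scale, and CCNE2 is grey because it was near 0. E2F1 is blue in both polysome libraries labelled knockdown and red in both labelled control, and RFC3, RFC4 and RFC5 are red in polysome labelled knockdown 2.

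The difference between the polysome change and the input change asks whether the share of an RNA on polysomes moves with the label. Among the 47 none was called, and 0% of all genes were. With edgeR, E2F1 and CDT1 had an unadjusted p under 0.05, 2 of 47 genes (4.26%, against 6.34% of all genes), and DESeq2 and limma-voom called none of the 47. E2F1 had a difference in log2 change of -0.69 (SE 0.18, adjusted p = 0.756, edgeR), and CDT1 one of -0.43 (SE 0.16, adjusted p = 0.767). Blocking on the lysate gave 0 calls among the 47 genes (0.0545% of all genes). Within each lysate, the log2 ratio of polysome to input RNA of E2F1 was 0.24 and 0.07 in labelled knockdown 1 and 2, against 0.87 and 0.82 in labelled control 1 and 2. For CDT1 it was 0.77 and 0.65 in labelled knockdown, against 1.20 and 1.08 in labelled control. Both labelled knockdown lysates lay below both labelled control lysates for each gene. The same order held for CCNE1, RFC1, POLA1, POLA2, POLD1, FEN1, RPA2, TYMS and CHAF1B. The reverse order held for MCM6, ORC1, GINS3, PCNA, RFC4, RFC5, POLE2 and RPA3. The share of all genes with either order was not computed.

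The strongest contrast among the 47 genes lay between polysome and input RNA. The comparison asks which transcripts are over- or under-represented on polysomes relative to the whole lysate, and a change shared by all transcripts would not be seen. In labelled knockdown, 17 genes were called, 12 higher on polysomes and 5 lower (36.2% in all, against 28.5% of all genes; 14.2% of all genes were higher and 14.3% lower). In labelled control, 21 were called, 16 higher and 5 lower (44.7%, against 29.1% of all genes; 16.5% higher and 12.7% lower). At an unadjusted p under 0.05 there were 24 genes in labelled knockdown (51.1%, against 39.5% of all genes) and 28 in labelled control (59.6%, against 38.8%). The fractions did not overlap for 19 higher and 16 lower genes in labelled knockdown (40.4% and 34%, against 26% and 38.6% of all genes). In labelled control this held for 23 higher and 14 lower genes (48.9% and 29.8%, against 29.1% and 37.1%). Blocking on the lysate gave 26 calls in labelled knockdown, 16 higher and 10 lower (34.9% of all genes were called), and 29 in labelled control, 20 higher and 9 lower (35%). The median log2 ratio over the 47 genes was 0.06 in labelled knockdown and 0.19 in labelled control, against -0.18 and -0.13 over all genes.

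Higher on polysomes in both labels were 12 genes (25.5%, against 12.5% of all genes): MCM2, MCM5, MCM7, CDT1, CDC45, POLA2, POLD1, POLD2, LIG1, RPA3, TK1 and CHAF1A. Lower in both were 3 (6.38%, against 9.23% of all genes): the origin recognition subunits ORC2 and ORC6 and the clamp loader subunit RFC3. MCM2, MCM5, MCM7, POLD1, POLD2, TK1 and CHAF1A (higher) and ORC6 (lower) kept their call in both labels under all 17 alternatives, corrections for GC content and the loss of any single library included, although the GC correction made their changes smaller.

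**Figure D3:**
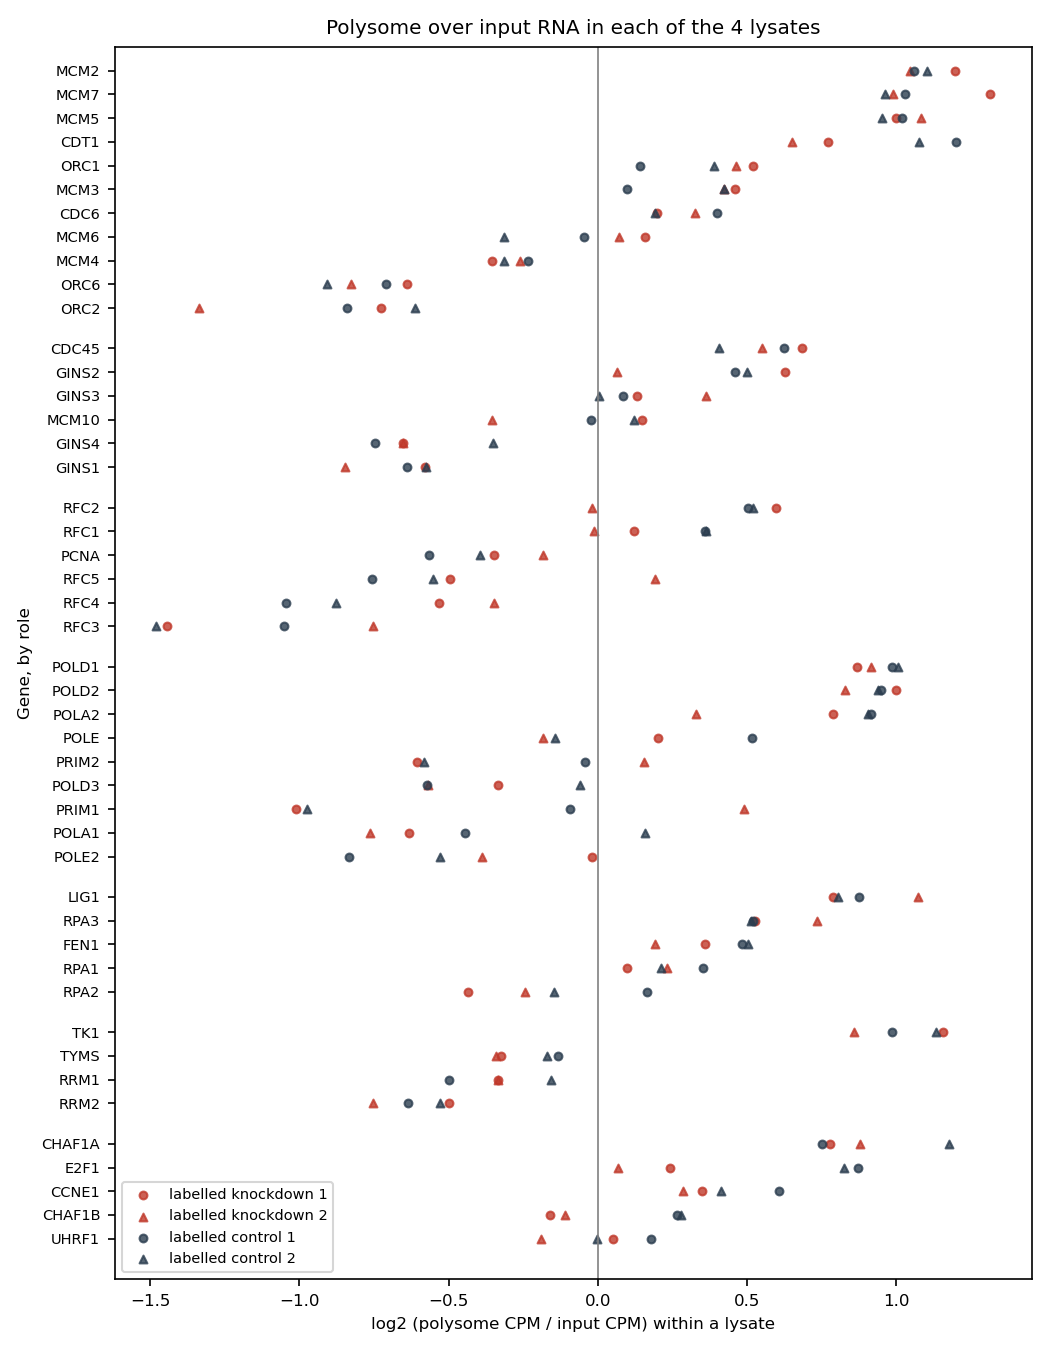
Log2 ratio of polysome to input CPM within each of the 4 lysates (horizontal axis), for 46 genes ordered within their role (CCNE2 is left out because it was near 0); red is labelled knockdown, dark blue labelled control, circles number 1 and triangles number 2. MCM2, MCM7, MCM5, POLD1, POLD2, LIG1, CHAF1A and TK1 lie right of 0 in all 4 lysates. RFC3, RFC4, ORC2, ORC6, GINS1 and RRM2 lie left of 0 in all 4. E2F1 and CDT1 have both red points left of both blue ones, as do other genes such as CCNE1 and FEN1, while PCNA and RFC4 show the reverse.

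The MCM ring, whose subunits work together in equal number, was split between called and uncalled genes. MCM2 had 536 and 499.5 CPM in polysome labelled knockdown, against 234 and 242 CPM in input labelled knockdown (log2 fold change 1.12, SE 0.10, adjusted p = 6.79e-05, edgeR). In labelled control it had 543 and 499.6 CPM in polysome RNA, against 260.5 and 233 CPM in input RNA (1.08, SE 0.10, adjusted p = 5.36e-05). All 4 polysome libraries lay above all 4 input libraries. MCM7 had 727 and 561 CPM in polysome labelled knockdown, against 292 and 283 CPM in input labelled knockdown (1.16, SE 0.12, adjusted p = 0.000154). It had 679 and 619 CPM in polysome labelled control, against 332 and 318 CPM in input labelled control (1.00, SE 0.12, adjusted p = 0.000249). MCM5 had 558 and 581 CPM in polysome labelled knockdown, against 279 and 274 CPM in input labelled knockdown, and 549 and 494 CPM in polysome labelled control, against 271 and 255 CPM in input labelled control. For MCM5 the log2 fold changes were 1.04 in labelled knockdown (adjusted p = 7.37e-05) and 0.99 in labelled control (adjusted p = 6.17e-05), and for MCM5 and MCM7 too the fractions did not overlap.

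The other subunits of the ring were not called in either label. MCM3 had log2 fold changes of 0.44 in labelled knockdown and 0.25 in labelled control, MCM6 of 0.12 and -0.17, and MCM4 of -0.31 and -0.27. With the lysate as a block, MCM3 was called higher and MCM4 lower in both labels. Per kb of exon, the highest subunit stood 5.50 to 7.44 times above the lowest in the polysome libraries, against 2.82 to 3.08 times in the input libraries. MCM6 was the lowest in all 8 libraries, and MCM7 the highest in all but input labelled knockdown 1, where MCM4 was.

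The coding sequences differ in the share of G or C at the last position of the codon, and a short homologous stretch makes this visible. The 9 codons of the ATP-binding loop are printed 5′ to 3′ on the coding strand (GENCODE v29, GRCh38), with G or C at the last codon position in capitals. They are given for MCM2, MCM3, MCM5, MCM6 and MCM7, and the stretch of MCM4 was not taken.
MCM2, chr3:127616912-127616938, plus strand: ggagaCcctggCacagcGaaGtcGcaG
MCM5, chr22:35413924-35413950, plus strand: ggGgaCcctggGacagcCaaGtcCcaG
MCM7, chr7:100097335-100097361, minus strand: ggGgatcctggtgtGgcCaaGtctcaG
MCM3, chr6:52277173-52277535, minus strand, with an intron inside the codons: ggagaCccatcCgttgcCaaGtctcaG
MCM6, chr2:135862615-135862641, minus strand: ggtgaCccaagtacagctaaGagCcaa
In this stretch MCM5 has 7 such codons, MCM2 has 6, MCM7 and MCM3 have 5 each and MCM6 has 3. Over the whole coding sequence the share was 79.7% in MCM5, 77.2% in MCM2, 64.6% in MCM7, 61.6% in MCM3, 53.1% in MCM4 and 46.0% in MCM6.

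**Figure D4:**
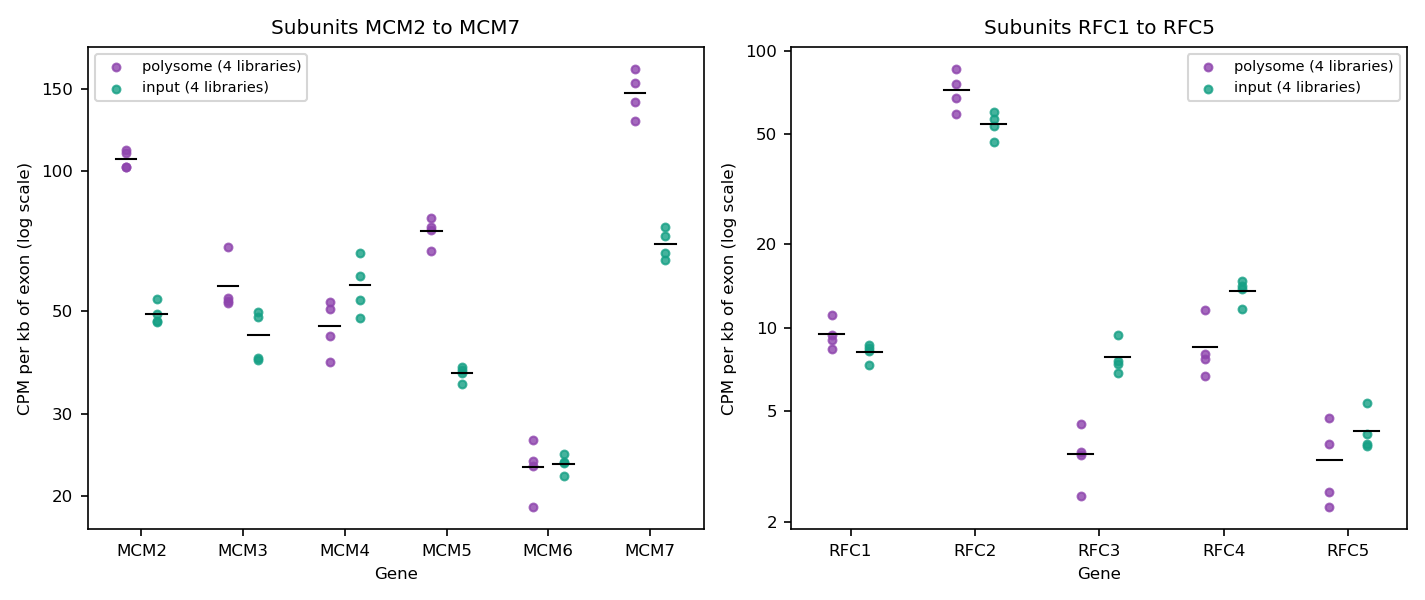
Levels per kb of exon (CPM per kb, log axes) of the subunits of the MCM ring (left) and of replication factor C (right), with polysome libraries in purple and input libraries in green; each point is a library and short lines are means of 4 libraries. MCM2, MCM5 and MCM7 are higher in polysome RNA with no overlap while MCM6 overlaps its input level, and RFC2 is highest of the clamp loader in every library.

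The other licensing genes split likewise. CDT1 had 336 and 312 CPM in polysome labelled knockdown, against 197 and 199 CPM in input labelled knockdown (0.71, SE 0.11, adjusted p = 0.00114). In labelled control it had 449 and 376 CPM in polysome RNA, against 195 and 179 CPM in input RNA (1.14, SE 0.11, adjusted p = 7.01e-05). ORC6 had 47.1 and 39.6 CPM in polysome labelled knockdown, against 73.4 and 70.2 CPM in input labelled knockdown (-0.73, SE 0.14, adjusted p = 0.00384). In labelled control ORC6 had 40.0 and 37.1 CPM in polysome RNA, against 65.5 and 69.6 CPM in input RNA (-0.81, SE 0.14, adjusted p = 0.00190), so that it lay on the other side from CDT1 without overlap. ORC2 was also lower on polysomes, at 11.5 and 8.39 CPM in polysome labelled knockdown, against 19.0 and 21.2 CPM in input labelled knockdown (-1.01, SE 0.25, adjusted p = 0.0117). It had 8.89 and 9.48 CPM in polysome labelled control, against 15.9 and 14.5 CPM in input labelled control (-0.73, SE 0.24, adjusted p = 0.0483). The ORC2 call was lost without either input library labelled knockdown in the first case (adjusted p = 0.0522 and 0.0848) and without any 1 of 6 libraries, all but the polysome libraries labelled knockdown, in the second (0.0619 to 0.182). Of the firing factors, CDC45 was higher on polysomes, at 80.3 and 72.9 CPM in polysome labelled knockdown, against 49.9 and 49.8 CPM in input labelled knockdown (0.62, adjusted p = 0.00591). CDC45 had 69.0 and 65.4 CPM in polysome labelled control, against 44.7 and 49.3 CPM in input labelled control (0.52, adjusted p = 0.0138), a call lost without either input library labelled control, either input library labelled knockdown, or polysome labelled control 1 (0.0528 to 0.231). GINS1 was called lower in labelled knockdown (-0.69, adjusted p = 0.0360), but not without input labelled knockdown 1 (0.232) or polysome labelled knockdown 2 (0.155), and had -0.61 in labelled control (adjusted p = 0.0560, and 0.00315 with the lysate block).

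Among the clamp and loader genes, RFC3 and RFC4 had the lowest ratios of polysome to input RNA. RFC3 had 9.98 and 12.9 CPM in polysome labelled knockdown, against 27.1 and 21.8 CPM in input labelled knockdown (-1.10, SE 0.26, adjusted p = 0.0107, and 0.107 without input labelled knockdown 1). It had 10.3 and 7.08 CPM in polysome labelled control, against 21.3 and 19.7 CPM in input labelled control (-1.24, SE 0.26, adjusted p = 0.00524). In labelled knockdown RFC4 had 24.2 and 34.9 CPM in polysome RNA, against 35.0 and 44.3 CPM in input RNA (-0.43, adjusted p = 0.159). RFC4 was called in labelled control, at 20.1 and 23.1 CPM in polysome RNA, against 41.4 and 42.4 CPM in input RNA (-0.96, SE 0.21, adjusted p = 0.00671), and the difference between the labels was not called (0.53, adjusted p = 0.780). PCNA had 240.2 and 262 CPM in polysome labelled knockdown, against 306 and 297 CPM in input labelled knockdown (-0.27, adjusted p = 0.0917, and 0.0177 with the lysate block). It was called lower in labelled control, at 214 and 251 CPM in polysome RNA, against 316 and 330.4 CPM in input RNA (-0.48, SE 0.11, adjusted p = 0.00722, and 0.0641 without polysome labelled control 1). RFC2 was called higher in labelled control (0.51, adjusted p = 0.0417), but not without any 1 of 6 libraries, all but the polysome libraries labelled knockdown (0.0721 to 0.282). Within the loader the highest subunit, RFC2, stood 13.2 to 33.7 times above the lowest per kb in polysome libraries, against 10.6 to 14.5 times in input libraries.

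Of the polymerase delta subunits, POLD1 and POLD2 were higher on polysomes than in input. The catalytic subunit POLD1 had 369.9 and 353 CPM in polysome labelled knockdown, against 203 and 187 CPM in input labelled knockdown (0.89, SE 0.10, adjusted p = 0.000159). It had 419 and 398 CPM in polysome labelled control, against 211 and 198 CPM in input labelled control (1.00, SE 0.10, adjusted p = 6.30e-05), with no overlap. POLD2 had log2 fold changes of 0.92 (adjusted p = 0.00119) in labelled knockdown and 0.95 (adjusted p = 0.000867) in labelled control, while POLD3, an accessory subunit, had -0.43 in labelled knockdown and -0.33 in labelled control and was not called. Of the primase complex, POLA2 was called higher in labelled knockdown (0.58, adjusted p = 0.0247) and in labelled control (0.91, adjusted p = 0.00238). The POLA2 call in labelled knockdown was lost without either input library labelled knockdown or without polysome labelled knockdown 1 (0.0672 to 0.160). POLA1 was called lower in labelled knockdown (-0.69, adjusted p = 0.0359), but not without any 1 input library or without polysome labelled knockdown 2 (0.0620 to 0.194), and PRIM1 and PRIM2 were not called. For nucleotide supply, TK1 had 438 and 335 CPM in polysome labelled knockdown, against 196 and 185 CPM in input labelled knockdown (1.02, adjusted p = 0.000335). TK1 had 358 and 371 CPM in polysome labelled control, against 181 and 169 CPM in input labelled control (1.06, adjusted p = 0.000213). RRM1, RRM2 and TYMS had negative log2 ratios in every lysate, from -0.75 to -0.13, and none was called in either label. With the lysate block, RRM1 and RRM2 were called lower in both labels and TYMS in labelled knockdown (adjusted p = 0.000507 to 0.0222). CHAF1A, the large subunit of chromatin assembly factor 1, had 349 and 319 CPM in polysome labelled knockdown, against 204 and 173 CPM in input labelled knockdown (0.83, adjusted p = 0.00107). It had 356 and 396 CPM in polysome labelled control, against 211 and 175 CPM in input labelled control (0.96, adjusted p = 0.000372), while its partner CHAF1B was not called.

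GC content moved with the polysome to input difference. Across the 47 genes, Spearman's rho between the mean log2 ratio and the GC content of the principal transcript was 0.83, against 0.57 across 13041 coding genes. With third-position GC it was 0.74, against 0.51. Genes are not independent replicates, and these points share their libraries, so both are descriptions. The coding genes were not matched to the 47 for expression level, so the rhos do not show a closer link in the 47. The 12 genes higher in both labels had a median third-position GC of 73.2% (46.7% to 84.9%), and the 3 lower in both had 40.9% (36.5% to 47.8%). UHRF1, which guides maintenance of DNA methylation, had a third-position GC of 84.8% and a log2 ratio of 0.01, and RPA3, the small subunit of the single-strand binding protein, had 46.7% and 0.57.

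Offsets for GC content and exon length left part of the calls. With them 11 of the 47 genes were called in labelled knockdown, 10 higher and 1 lower, and 14 in labelled control, 12 higher and 2 lower (17% of all genes in each). The rho with GC content of the principal transcript was then 0.51. The offsets themselves used the GC content of the longest transcript of each gene, which can differ (for LIG1 56.4%, against 60.7% in the principal transcript). The rho over all coding genes was not computed after correction. MCM2 had corrected log2 fold changes of 0.74 in labelled knockdown and 0.65 in labelled control, MCM7 of 0.82 and 0.60, and MCM5 of 0.68 and 0.57, all called. For POLD1 the corrected values were 0.41 in both labels, for POLD2 0.53 in labelled knockdown and 0.50 in labelled control, for TK1 0.57 and 0.56, and for CHAF1A 0.48 and 0.57, also called. ORC6 remained lower at -0.67 and -0.72, also called, while RFC3 (-0.57 and -0.70, adjusted p = 0.160 and 0.0966) and ORC2 (-0.58 and -0.28, adjusted p = 0.129 and 0.492) were no longer called. MCM6 moved to 0.42 in labelled knockdown and 0.16 in labelled control, PCNA in labelled control to -0.20, and CDT1 in labelled knockdown to 0.25, none of them called. E2F1 in labelled knockdown changed sign, from an uncalled 0.16 without offsets to -0.29, which was called only when the lysate was also a block (-0.30, adjusted p = 0.0267). What GC content contributes beyond these offsets was not tested.

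**Figure D5:**
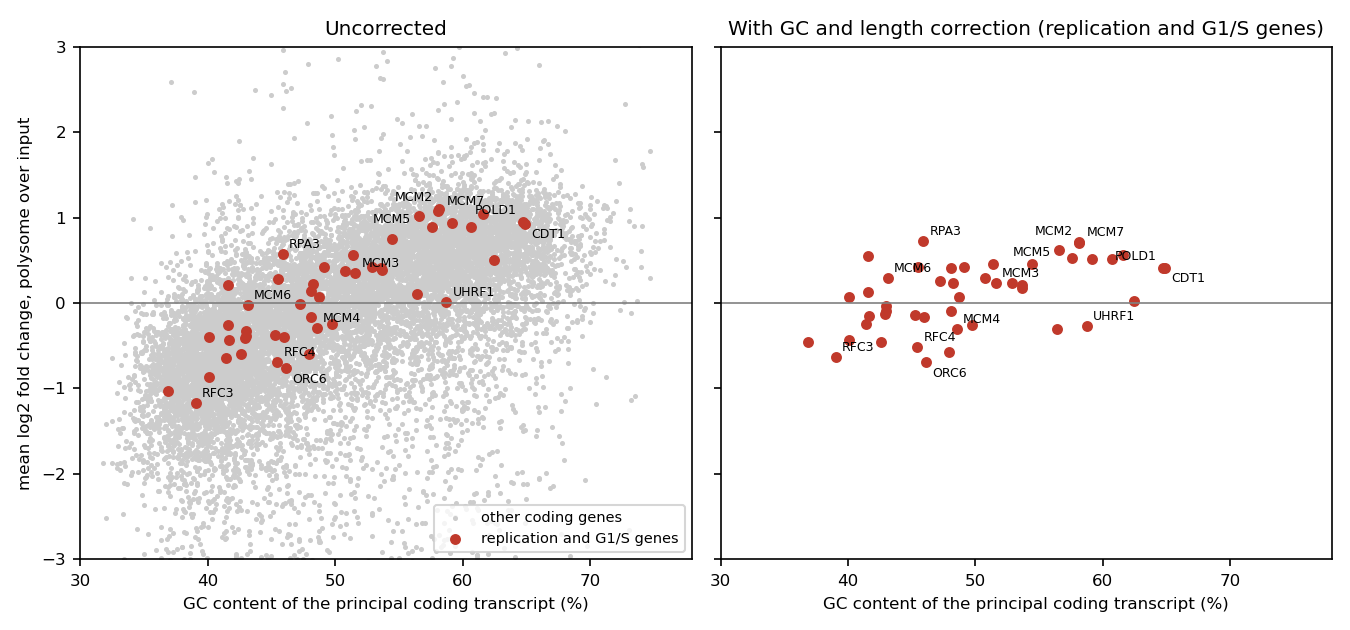
Mean log2 fold change of polysome over input RNA (vertical axis, mean of both labels) against GC content of the principal coding transcript in percent (horizontal axis), without correction (left, grey points are other coding genes) and with offsets for GC content and exon length (right, the 47 genes only). The red points run upward with GC content on the left (rho 0.83) and less steeply on the right (rho 0.51); grey points beyond 3 in either direction are outside the axes.

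Since FBL followed the library number, the 47 genes were also described along it. In a fit with a term for the number, 41 of the 47 genes had a negative log2 fold change, number 2 over number 1, where 51.85% of all genes did, and the median was -0.13 against -0.01. Called were 4 genes, all lower in number 2 (8.51%, against 0.939% of all genes called lower and 1.82% in either direction). In all 4 groups number 2 was the lower library for 18 genes (38.3%, against 12.1% of all genes) and the higher for 2, LIG1 and RFC4 (4.26%, against 9.76%). The labels give no meaning for the number, and every library was kept in its labelled group.

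The 4 genes were MCM4, RRM2, FEN1 and POLD2. MCM4 had 309 CPM in number 2 and 365 CPM in number 1 of polysome labelled knockdown, and 271 and 352 CPM in number 2 and 1 of polysome labelled control. In input RNA MCM4 had 369 and 466 CPM in number 2 and 1 of labelled knockdown, and 337 and 414 CPM in labelled control (log2 fold change -0.31, SE 0.05, adjusted p = 0.0106, edgeR). RRM2, the small subunit of ribonucleotide reductase, had 42.0 and 69.0 CPM in number 2 and 1 of polysome labelled knockdown, and 55.6 and 69.6 CPM in polysome labelled control. It had 70.8 and 97.4 CPM in number 2 and 1 of input labelled knockdown, and 80.1 and 108 CPM in input labelled control (-0.48, SE 0.09, adjusted p = 0.0179). Within each group number 2 of RRM2 was 20.1% to 39.2% below number 1. FEN1 had 310.2 and 398 CPM in number 2 and 1 of polysome labelled knockdown, 389 and 471 CPM in polysome labelled control, 272 and 310.2 CPM in input labelled knockdown, and 274 and 337 CPM in input labelled control (-0.28, SE 0.05, adjusted p = 0.0219). POLD2 had 493 and 629.9 CPM in number 2 and 1 of polysome labelled knockdown, 626 and 744 CPM in polysome labelled control, 278 and 315 CPM in input labelled knockdown, and 326 and 385 CPM in input labelled control (-0.26, SE 0.05, adjusted p = 0.0288). The plot of levels in every library shows number 2 below number 1 in each of these groups.

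In this fit the fractions of a lysate enter as separate samples, so its errors may be too small. With the 4 input libraries alone 5 genes were called lower in number 2, MCM3, MCM4, FEN1, RRM2 and CHAF1A (2.49% of all genes were called lower and 5.16% in either direction). With the 4 polysome libraries alone none of the 47 was (0.187% and 0.561% of all genes). Without polysome labelled control 1 or without polysome labelled control 2, RRM2 alone was called, and MCM4 then had an adjusted p of 0.0783 or 0.0722. For comparison, FBL had -1.57 (adjusted p = 2.32e-07, SE 0.05).

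A second list of 55 replication and G1/S genes, of which 54 passed the filter, was read beside the 47. The list was drawn up with earlier results of these data known. A share of calls above that of all genes is therefore no independent support. In input RNA none of the 54 was called between the labels. In polysome RNA 3 were called, each lower in labelled knockdown (5.56%, against 0.63% of all genes called lower and 0.879% in either direction). The checkpoint mediator CLSPN had 13.7 and 7.52 CPM in polysome labelled knockdown, against 42.5 and 155 CPM in polysome labelled control (-3.20, SE 0.53, adjusted p = 0.0363, edgeR), with labelled control 2 far above labelled control 1. DBF4, the activating subunit of the CDC7 kinase, had 2.26 and 4.53 CPM in polysome labelled knockdown, against 12.9 and 9.59 CPM in polysome labelled control (-1.75, SE 0.34, adjusted p = 0.0497). POLE3, a histone-fold subunit of polymerase epsilon, had 94.0 and 73.9 CPM in polysome labelled knockdown, against 134 and 154 CPM in polysome labelled control (-0.78, SE 0.14, adjusted p = 0.0414). None of the 3 overlapped between the labels. How these 3 calls fare under the alternatives was not examined. Exons of CLSPN, DBF4 and POLE3 overlap those of a neighbouring gene, and DBF4 has 1 pseudogene by name. Against input, the 54 genes leaned the other way from the 47, with medians of -0.42 in labelled knockdown and -0.41 in labelled control. The GC content of the lists was not compared, and its part in this was not tested. In labelled knockdown 8 of the 54 were called higher and 18 lower on polysomes (14.8% and 33.3%, against 14.2% and 14.3% of all genes). In labelled control 11 were called higher and 16 lower (20.4% and 29.6%, against 16.5% and 12.7%). Along the library number the 54 genes had a median of -0.10, near the -0.13 of the 47. In all 4 groups number 2 was the lower library for 15 of them (27.8%, against 12.1% of all genes) and the higher for 3 (5.56%, against 9.76%). Called were 3 of the 54 (5.56%, against 1.82% of all genes), named here after their values were seen. The cyclin-dependent kinase inhibitor CDKN1A (0.97, adjusted p = 0.00416, edgeR) and the nucleotide triphosphohydrolase SAMHD1 (0.41, adjusted p = 0.00517) were higher in number 2. The phosphatase CDC25A (-0.41, adjusted p = 0.0170) was lower.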

How the data were processed

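The authors deposited raw read counts per gene for 8 libraries, not normalized. Per the submitters' processing notes the tools were Trimmomatic 0.38, Bowtie2 and HTSeq 0.11.2 on GRCh38. No source used here names the annotation, the read layout or the strand setting. Bowtie2 is not splice-aware, so reads across exon junctions may be missing. Lines that name no gene held 13.2% to 15.0% of reads and were left out. Depth was 22171255 to 43118190 gene counts.

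Counts were fitted in R 4.3.3 with edgeR 4.0.16 (quasi-likelihood F test, TMM, filterByExpr by group) in a single model of 4 groups with 4 residual degrees of freedom. The library number was tested with a further term for it. Calls were made at a Benjamini-Hochberg adjusted p under 0.05 over all 16503 genes. The fits were tested on simulated counts. Alternatives were other filters and scalings, DESeq2 1.42.0, limma-voom (limma 3.58.1), fits of single fractions, libraries left out in turn, a replicate block, and loess offsets for GC content and exon length. The offsets were fitted only for polysome against input RNA, not for comparisons between the labels or along the number.

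The protocol takes input and gradient from the same lysate, so polysome and input libraries of a label and number are paired. Deviations of paired libraries correlated at 0.37 (labelled knockdown) and 0.32 (labelled control). Groups that share only the number correlated at 0.20 to 0.48, so these values do not set the lysate apart from the number. Libraries of a group differed by more than sampling noise (chi-square per degree of freedom 22.8 to 49.7).

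Genes given in full follow a rule: FBL, members called between the labels, the 6 highest and 6 lowest called members against input (labelled control) and along the number (10 CPM or more in the group with more), the highest per kb in each role, and members of the second list called between the labels. The members, lists and tests were chosen with earlier results of these data known. GENCODE v29 gave positions, exon lengths and GC content, and RefSeq gave promoters.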

Additional observations from a re-analysis of the deposited data

How the results depend on the processing

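No called gene changed direction under any alternative. Some uncalled values did, such as E2F1 and MCM6 on polysomes with GC and length offsets. With libraries left out, the median log2 change of the 47 genes between the labels lay on both sides of 0 in input RNA (-0.07 to 0.05), in polysome RNA (-0.18 to 0.06) and in the difference between the fractions (-0.17 to 0.12). In polysome RNA between the labels, 1 of the 47 genes was called. Upper-quartile scaling and a fit of only the 4 polysome libraries called 0, and leaving out each library in turn called 0 to 2. Library numbers are not a stated pairing across the labels, although deviations of same-numbered groups correlated at 0.20 to 0.48. With the number as a replicate block 5 genes were called lower in labelled knockdown, E2F1, CDT1, CCNE1, FEN1 and POLD2 (6.38% of all genes were called), and 0 of the 47 in input RNA. With the lysate as the block, 0 were called in the difference between the fractions. In polysome against input RNA, labelled knockdown, 17 genes became 26 with the lysate as a replicate block and 11 with GC and length offsets, and leaving out libraries gave 13 to 20. In labelled control 21 became 29 with the block (35% of all genes were called, against 29.1% without it), and leaving out libraries gave 15 to 24. Along the number, 4 genes became 0 with only the 4 polysome libraries and 1 to 4 with libraries left out. Over all alternatives, called genes kept their call in 640 of 726 refits and lost it in 86, and uncalled genes with an unadjusted p under 0.05 gained a call in 75 of 523. A lone library of a group was assumed to vary like the others. The fewest counts lay behind CCNE2, POLE2, GINS4 and PRIM1, below 11 CPM in every library, where small differences are not detectable at this depth. The causes of these differences were not tested.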
